A study of Mus musculus with 8 samples.

Results

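Messenger RNAs for the machinery that moves proteins into or across the membrane of the endoplasmic reticulum (ER) were followed in mouse plasmablasts with and without Jagn1. The 34 genes are defined by name and function, on a list drawn up with earlier results of these data known: 6 genes of the signal recognition particle (SRP), 2 of its receptor, 7 of the Sec61 translocon and its partners, 4 of the translocon-associated protein complex (TRAP), 5 of the signal peptidase, 9 of the ER membrane protein complex (EMC), and Get4. All 34 are among the 24413 symbols in the count tables, and all 34 had enough tags to be tested, among 9904 tested genes in all.

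Plasmablasts are dividing antibody-secreting cells, and antibody chains enter the ER through this route. SRP binds a hydrophobic signal sequence as it leaves the ribosome and docks at its receptor, the Sec61 channel threads the chain through the membrane, TRAP assists the channel, and signal peptidase removes the signal sequence. EMC inserts transmembrane segments that Sec61 handles poorly, and Get4 belongs to the cytosolic relay that hands tail-anchored proteins to the ER. Many genes of this machinery are known targets of the transcription factor XBP1, which expands the ER in plasma cells.

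The study compared 4 libraries from mice of genotype Jagn1fl/fl Mb1Cre+ (the knockout) with 4 from Jagn1fl/fl mice (the control), all of strain C57BL/6J, with 4 mice per genotype. B220+ spleen cells were grown for 4 days with 25 µg/ml lipopolysaccharide (LPS), and CD22-CD138+ plasmablasts were sorted before RNA extraction. Both groups carry the floxed alleles, Cre is listed for the knockout alone, and Mb1-Cre is expressed from the B lineage gene Cd79a, so an effect of Cre itself cannot be told apart from the loss of Jagn1. Jagn1 encodes a membrane protein of the ER. The labels do not state the age of the mice.

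Each library held 5882912 to 10066661 tags, and a count of 0 allowed up to 0.298 to 0.510 CPM (tags scaled to a common library total, TMM-adjusted counts-per-million) at a limit of 3 counts, for counting error only. The kit reads 1 tag per transcript end, so CPM was compared without division by gene length. Jagn1 had 19, 35, 16 and 99 counts in control replicates 1 to 4 against 2, 1, 1 and 1 in the knockout, as the labels say, and its log2 fold change was -4.81 ± 0.73 (SE), with an edgeR adjusted p of 0.000818. Markers of T, NK, myeloid and erythroid cells summed to at most 12.5 CPM for any list in any library, and 4 of 4 erythroid, 4 of 7 myeloid (Lyz2, Cd14, S100a8 and S100a9) and 2 of 3 NK markers were at 0 in all 8. The 8 plasmablast markers were all detected, and 5 of them (Sdc1, Jchain, Tnfrsf17, Slamf7 and Cd93) fell in the knockout, where the list summed to 4898 to 7308 CPM against 7723 to 12491 CPM in the control. The 6 B cell markers summed to 576 to 711 CPM against 629.76 to 901 CPM, with 1 of them lower, Cd79a itself. Whether this marker difference contributed to the values below was not tested. In sorted bulk samples, fewer cells of a type and less RNA per cell cannot be told apart. Control replicates 1 and 4 stood apart: over all genes their log2 CPM lay 0.594 and 0.581 (root mean square) from the group mean, where the range for the remaining libraries was 0.324 to 0.432. Calls that change and complex values that turn without them are given both ways.

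Transcripts of this machinery were abundant in both genotypes, and no gene of the 34 passed the test between them. By mean control CPM, 20 of the 34 lay in the top 10% of the 9904 tested genes and 31 lay above the median. The 34 genes together took 2.17% of control tags and 2.24% of knockout tags. Their log2 fold changes, knockout over control, had a median of 0.12, against -0.0096 over all tested genes, and 23 of 34 fitted values were above 0 (67.6%, against 48.7% of all tested genes).

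With edgeR's quasi-likelihood test and Benjamini-Hochberg adjustment over all genes, 0 of 34 were called, meaning an adjusted p under 0.05, where 5.74% of all tested genes were called. At an unadjusted p under 0.05 there were 7 of 34, 4 with a positive and 3 with a negative fitted value, against a background of 18.0%, so this share is near that of all genes. For 4 of 34 the 4 knockout libraries lay entirely above or below the 4 control libraries, against 13.1% of all genes. These were Sec63, Emc3 and Emc4 above (6.45% of all genes) and Emc8 below (6.64%). DESeq2 called 1 of the 34 (background 8.66%) and limma-voom with sample weights called 5 (background 10.8%). Missing the threshold does not show that the genotypes are alike. The 95% interval of the fold change lay within 2-fold in both directions for 31 of 34 genes and within 1.5-fold for 14 of 34, and the exceptions to the first were Srp9, Tram2 and Emc4.

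**Figure D1:**
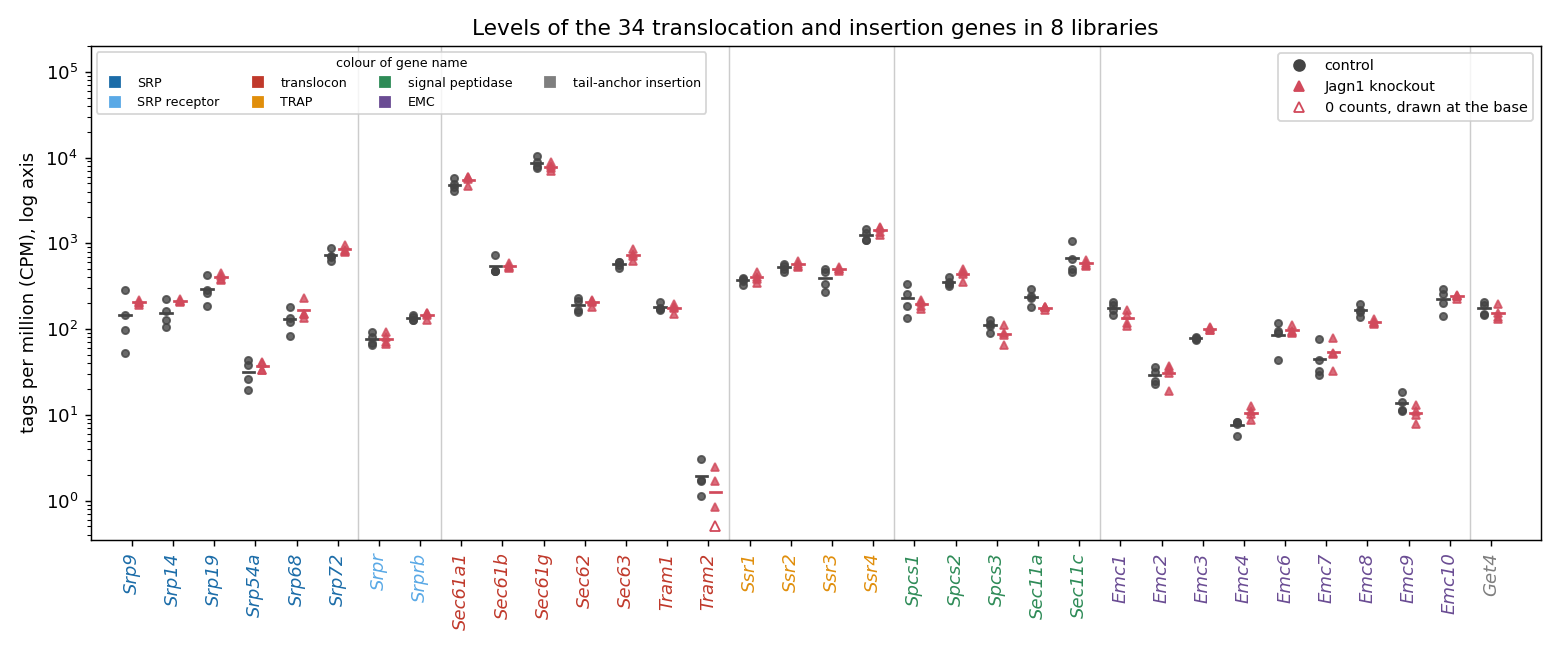
Level of each of the 34 genes in CPM (log axis) in 4 control libraries (grey circles) and 4 Jagn1 knockout libraries (red triangles), with group means as bars and gene names coloured by complex. Sec61g and Sec61a1 sit at 4020 to 10298 CPM, Tram2 is at or under 3.09 CPM with its 0 counts in knockout replicate 1 drawn open at the base, and the control circles of Srp9 span 52.7 to 286 CPM.

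Summed over a complex, SRP stood at 1355, 1338, 1473 and 1786 CPM in control replicates 1 to 4 and at 1997, 1801, 1767 and 1946 CPM in knockout replicates 1 to 4. These groups overlap through control replicate 4 alone. The ratio of the group means, knockout over control, was 1.26 for SRP, 1.05 for its receptor, 1.00 for the translocon and 1.15 for TRAP. It was 0.929 for signal peptidase, 0.969 for EMC and 0.894 for Get4. Abundant genes weigh most in these sums. In the translocon, Sec61g had a mean of 7829 CPM in the knockout against 8636 in the control, and Sec61a1 had 5513 against 4804. In SRP, Srp72 held 733 CPM of the control mean of 1488 CPM. In median log2 fold change SRP was at 0.40, TRAP at 0.16, EMC at 0.11, the receptor at 0.06, the translocon at 0.01 and signal peptidase at -0.23. All 6 SRP genes, both receptor genes and all 4 TRAP genes had fitted values above 0, as did 4 of 7 translocon genes, 6 of 9 EMC genes and 1 of 5 signal peptidase genes. Control replicate 4 set the direction of the signal peptidase ratio. Without it the ratio was 1.07, the median 0.0076 and the tally 3 of 5, and without control replicates 1 and 4 the ratio was 1.01, the median -0.18 and the tally 2 of 5. For SRP the ratio was 1.35 and 1.34 in these same 2 settings, with 6 of 6 fitted values above 0 in each. EMC had 4 of 9 and a median of -0.0017 without control replicate 4. The translocon had 3 of 7 without control replicate 1, 2 or 3 (medians of -0.042, -0.042 and -0.045) or without knockout replicate 1 (-0.027). The receptor tally was 1 of 2 without control replicate 3 or 4, knockout replicate 2 or 3, or both control replicates 1 and 4. That of TRAP was 4 of 4 with any library left out. These are descriptions of the complexes, and no test was made between them.

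**Figure D2:**
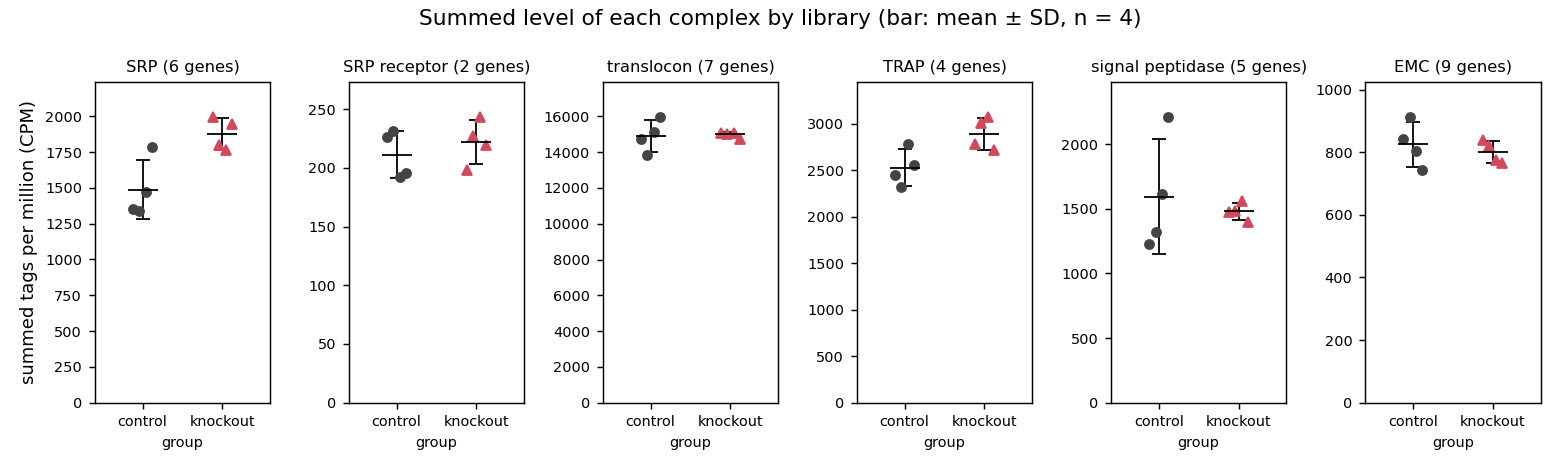
Summed level of each complex in CPM (axes from 0), with a point per library and bars for mean ± SD (n = 4 per group); each panel has its own scale. Knockout SRP sums lie at 1767 to 1997 CPM, above 3 of the 4 control sums, and the signal peptidase sums of the control spread from 1224 to 2214 CPM around the knockout values.

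Promoters were read for motifs of the ER stress factors, because many of these genes are known XBP1 targets. RefSeq promoters (GRCm38.p6, 250 bases before to 50 after the transcript start) matched 25 of the 34 genes by symbol. The XBP1 core GACGTG, searched on both strands, was found in 4 of the 25 (16.0%), against 7.15% of the 27025 genes with a promoter in the table. The promoters of the 25 were richer in G and C, with a median of 61.3% against 52.7% over all promoters, and the motif holds a CG pair. The part of base composition in this difference was not tested. The 4 were Sec63, Srp14, Srpr and Ssr1. The longer UPRE core TGACGTGG, which contains this motif, was found in 0 of 25 (0.714% of all genes), as were the ATF4 element TGATGNAAT (1.08%), the ERSE pattern of CCAAT, 9 bases and CCACG (0.137%), and the ERSE-II pattern of ATTGG, 1 base and CCACG (0.0444%).

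In all 4 promoters the match lay just before the transcript start, with its first base at position -21 in Sec63, -18 in Srp14, -12 in Srpr and -25 in Ssr1. The stretch from position -50 to position 10 is shown for each, 5′ to 3′ on the strand of the gene, so that the place of the match can be compared, and capitals mark the core or its reverse complement. In GRCm38 the stretches lie at chr10:42761446-42761505 (plus strand), chr2:118479687-118479746 (minus strand), chr9:35211153-35211212 (plus strand) and chr13:37994199-37994258 (minus strand).
Sec63: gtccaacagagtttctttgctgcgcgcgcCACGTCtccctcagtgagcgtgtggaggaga
Srp14: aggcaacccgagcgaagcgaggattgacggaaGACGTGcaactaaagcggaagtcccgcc
Srpr: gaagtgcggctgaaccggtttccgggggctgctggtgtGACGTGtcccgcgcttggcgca
Ssr1: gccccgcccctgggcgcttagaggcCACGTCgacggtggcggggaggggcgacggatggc
The core is read forward in Srp14 and Srpr and on the other strand in Sec63 and Ssr1. The log2 fold changes of these genes were 0.35 for Sec63, 0.47 for Srp14, 0.0021 for Srpr and 0.12 for Ssr1, and none was called. The transcript of Xbp1 itself stood at 106, 209.6, 256 and 559 CPM in control replicates 1 to 4 and at 186, 196, 239.89 and 240.48 CPM in knockout replicates 1 to 4, with overlapping groups (log2 fold change -0.39 ± 0.37, edgeR adjusted p = 0.643). Control replicate 1 was its lowest library and control replicate 4 its highest. Among control libraries, Sec63 was highest in replicate 1 and lowest in replicate 4. Srp14 was highest in control replicate 4 and lowest in control replicate 2. Srpr and Ssr1 were highest in control replicate 2 and lowest in control replicate 3. Of the 34 genes, Srp9, Srp19, Srp68, Sec61g, Ssr2, Ssr3, Spcs1, Sec11a, Sec11c, Emc6 and Emc7 shared the lowest and highest control libraries of Xbp1. For Srp72, Sec61a1, Emc10 and Get4 these were reversed, as for Sec63. Whether the level of Xbp1 bears on any of these genes was not tested. Tag counts of Xbp1 do not measure the activity of the XBP1 protein. A match of letters is not evidence of binding, and these windows leave out more distant sequence.

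SRP is an RNA-protein particle, and the fitted values of its 6 subunits ran from 0.21 to 0.49, with none called. Srp14, which with Srp9 forms the domain that slows translation, stood at 127, 107, 163 and 221 CPM in control replicates 1 to 4 and at 205, 213, 215 and 225 CPM in knockout replicates 1 to 4. The knockout libraries are tightly grouped and exceed control replicates 1 to 3, while control replicate 4 lies within their range. Its log2 fold change was 0.47 ± 0.19 (SE), and it had an edgeR adjusted p of 0.194. Srp14 lies on chromosome 2 from 118475850 to 118479711 on the minus strand (GRCm38, GENCODE M21).

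Srp9 stood at 52.7, 98.1, 147 and 286 CPM in the control and at 202, 208, 218 and 192 CPM in the knockout. The highest control library had 5.43 times the lowest, while the highest knockout library had 1.13 times the lowest. This gave a log2 fold change, 0.49 ± 0.37, with a wide error (edgeR adjusted p = 0.55). Srp19, which helps the particle assemble, stood at 187, 266, 289 and 429.65 CPM in the control and at 447, 387, 375 and 417 CPM in the knockout, and its fitted log2 fold change was 0.47 ± 0.20 (edgeR adjusted p = 0.216). For both genes control replicate 1 was the lowest library of all 8.

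In edgeR, whether Srp9, Srp14 and Srp19 were called turned on control replicate 4. Without it, Srp9, Srp14 and Srp19 had log2 fold changes of 1.04, 0.68 and 0.71 and edgeR adjusted p-values of 0.0100, 0.00817 and 0.00747. Without control replicates 1 and 4 the values were 0.74, 0.67 and 0.55, with adjusted p-values of 0.00275, 0.00671 and 0.00859. With all 8 libraries, limma-voom with sample weights called Srp14 and Srp19, at adjusted p-values of 0.0084 and 0.0148, and did not call Srp9 (0.0543). Over all alternatives the edgeR, DESeq2 or limma-voom adjusted p ran from 0.00275 to 0.76 for Srp9, from 0.00671 to 0.439 for Srp14 and from 0.00747 to 0.441 for Srp19. What sets control replicate 4 apart was not tested.

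Srp72, the SRP gene with the highest level, stood at 887, 719.6, 694 and 629 CPM in the control and at 956, 809.6, 794 and 841 CPM in the knockout. The groups overlap, and its log2 fold change was 0.21 ± 0.14 (edgeR adjusted p = 0.468). Here control replicate 4 was the lowest control library, unlike in Srp9, Srp14 and Srp19, where it was the highest. Srp68, the partner of Srp72 in the particle, ran from 82.2 to 182 CPM in the control and from 133 to 229 CPM in the knockout (log2 fold change 0.34 ± 0.22).

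Srp54a encodes the GTPase that holds the signal sequence. It ran from 19.5 to 43.7 CPM in the control and from 33.1 to 41.1 CPM in the knockout, for a fitted log2 change of 0.21 ± 0.23 (edgeR adjusted p = 0.71). The mouse has near-identical copies, Srp54b and Srp54c, and both were listed at 0 counts in all 8 libraries. Of the 50-base windows of the longest annotated Srp54a transcript, 75.1% also occur in Srp54b and 70.3% in Srp54c, but 0% of those in its last 200 bases do. The last 200 bases of Srp54b and Srp54c share all such windows with each other. Tags from the ends of Srp54b and Srp54c could therefore be lost by the counting, while the end of the longest Srp54a transcript shares no such window with either. Only the longest annotated transcript of each gene was compared, and Srp54a has 6 annotated transcripts. Tags from further upstream could still be misassigned, so some uncertainty in the level of Srp54a remains.

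The SRP receptor had 2 genes with close levels in the 2 groups. Srprb, the membrane-anchored subunit, stood at 145, 137, 126 and 127 CPM in control replicates 1 to 4 and at 129, 146, 152 and 152 CPM in knockout replicates 1 to 4. The groups overlap, with a log2 fold change of 0.11 ± 0.13 (95% interval -0.17 to 0.40, edgeR adjusted p = 0.726). Srpr, the GTPase subunit that meets SRP, ran from 65.7 to 93.6 CPM in the control and from 67.5 to 91.5 CPM in the knockout, with a log2 fold change of 0.0021 ± 0.17. Annotated exons of Srprb share 888 bases with Gm20425 on the same strand, so the assignment of some tags is uncertain.

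The Sec61 channel held the 2 genes with the highest levels among the 34. Sec61g, a small single-pass subunit, ranked 11 among 9904 tested genes by mean control CPM. It stood at 7531, 7916, 8798 and 10298 CPM in control replicates 1 to 4 and at 8880.2, 7534.5, 7861 and 7039 CPM in knockout replicates 1 to 4. The groups overlap, and the log2 fold change was -0.14 ± 0.14 (95% interval -0.44 to 0.15, edgeR adjusted p = 0.658).

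Sec61a1, which forms the pore, ranked 27 and stood at 5779.8, 4552, 4864 and 4020 CPM in the control and at 4645, 5849, 5576.5 and 5980.4 CPM in the knockout. Control replicate 4, highest for Sec61g, was lowest here, and the log2 fold change was 0.20 ± 0.14 (edgeR adjusted p = 0.519). Sec61b, the remaining subunit, was lower, at 470.46 to 725 CPM in the control and 519.8 to 588 CPM in the knockout (log2 fold change 0.01 ± 0.16). Tags per transcript can differ between genes with priming at the transcript end, and this was not tested. The second alpha gene, Sec61a2, contributed at most 0.0847% of the Sec61a1 and Sec61a2 tags in any library.

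Sec63 is the J-domain protein that brings the lumenal chaperone BiP to the channel. It stood at 609, 562, 598 and 520.11 CPM in control replicates 1 to 4 and at 620.18, 741, 702 and 854 CPM in knockout replicates 1 to 4. All 4 knockout libraries lay above all 4 control libraries, with knockout replicate 1 close to control replicate 1. Sec63 occupies 42761496 to 42832514 of chromosome 10, plus strand (GRCm38), and its promoter is the first of the stretches printed above. The log2 fold change was 0.35 ± 0.14 (95% interval 0.06 to 0.64), and the edgeR adjusted p was 0.176 and ran from 0.0839 to 0.541 over the alternatives, none of which called it. Sec62, which works beside Sec63 on short or weakly targeted chains, ran from 159 to 231 CPM in the control and from 180.45 to 221 CPM in the knockout (log2 fold change 0.09 ± 0.15).

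Tram1, which contacts chains as they enter the channel, ran from 167 to 207 CPM in the control and from 149.6 to 196 CPM in the knockout (log2 fold change -0.04 ± 0.14). Its paralog Tram2 was near the limit of detection, with 22, 7, 12 and 18 counts in control replicates 1 to 4 and 0, 17, 13 and 7 in knockout replicates 1 to 4. Tram2 made up 0.64% to 1.78% of the Tram1 and Tram2 tags in control libraries and 0% to 1.39% in knockout libraries, where the 0 of 1346 tags in knockout replicate 1 allows a share of up to 0.223%. At this depth the log2 fold change of Tram2, -0.62 ± 0.78, had a 95% interval from -2.29 to 1.05.

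TRAP consists of 4 subunits that sit beside Sec61. Ssr4 (TRAP delta) had the highest level, at 1331, 1088, 1455 and 1102 CPM in control replicates 1 to 4 and at 1253, 1568, 1524 and 1362 CPM in knockout replicates 1 to 4, with overlapping groups (log2 fold change 0.20 ± 0.14, edgeR adjusted p = 0.514). Ssr3 (TRAP gamma), which had the smallest p of the 4, stood at 269, 338, 463 and 504 CPM in the control and at 501.49, 501.5, 523 and 480.48 CPM in the knockout. Its knockout libraries lay at the upper end of the wide control range or just above it, and the fitted value was 0.35 ± 0.18 on the log2 scale (edgeR adjusted p = 0.319). Ssr1 (alpha) and Ssr2 (beta) ran from 325 to 399 and from 467 to 580 CPM in the control, and from 347 to 462 and from 526 to 624 CPM in the knockout, both with a log2 fold change of 0.12.

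Signal peptidase joins a catalytic subunit, Sec11a or Sec11c, to accessory subunits. Sec11a stood at 179, 229.6, 243 and 296 CPM in control replicates 1 to 4 and at 181, 182, 182 and 165 CPM in knockout replicates 1 to 4. Control replicates 2, 3 and 4 lay above the whole knockout range and control replicate 1 lay within it. The log2 fold change was -0.42 ± 0.16 (95% interval -0.75 to -0.09, edgeR adjusted p = 0.152). Without control replicate 1 the gene was called, at -0.53 on the log2 scale (edgeR adjusted p = 0.0158), as it was without control replicates 1 and 4 (-0.41, adjusted p = 0.0483) and with limma-voom (-0.39, adjusted p = 0.0450), within a range of adjusted p from 0.0158 to 0.432 over all alternatives. Sec11a lies on chromosome 7 from 80904889 to 80947780 on the minus strand (GRCm38), where its annotated exons share 163 bases with Nmb on the same strand and 216 with a pseudogene on the opposite strand.

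Sec11c, the paralog, stood at 464, 496, 652 and 1050.4 CPM in the control and at 542, 565, 592 and 632 CPM in the knockout, and overlapping groups (log2 fold change -0.19 ± 0.21, edgeR adjusted p = 0.706). Without control replicate 4 that value was 0.11. Sec11c gave most of the catalytic subunit tags. Its share was 72.1%, 68.4%, 72.9% and 78.0% in control replicates 1 to 4 and 75.0%, 75.6%, 76.5% and 79.3% in knockout replicates 1 to 4, or 72.9% ± 3.98 against 76.6% ± 1.91 (SD, n = 4 each). The widest exact binomial (Clopper-Pearson) 95% interval of a library, that of control replicate 2, ran from 67.0% to 69.7%, less than the spread among control libraries. The groups overlap through control replicate 4.

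The accessory subunits did not share a direction. Spcs2 ran from 319 to 405 CPM in the control and from 350.5 to 499 CPM in the knockout (log2 fold change 0.31 ± 0.15, edgeR adjusted p = 0.278). Spcs3, a subunit the enzyme needs for activity, ran from 89.3 to 128 CPM and from 64.9 to 111 CPM (-0.33 ± 0.18, edgeR adjusted p = 0.357). Spcs1 ran from 136 to 334 CPM in the control, with replicate 1 lowest and replicate 4 highest, and from 171 to 217 CPM in the knockout (-0.23 ± 0.22, and 0.0076 without control replicate 4).

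**Figure D3:**
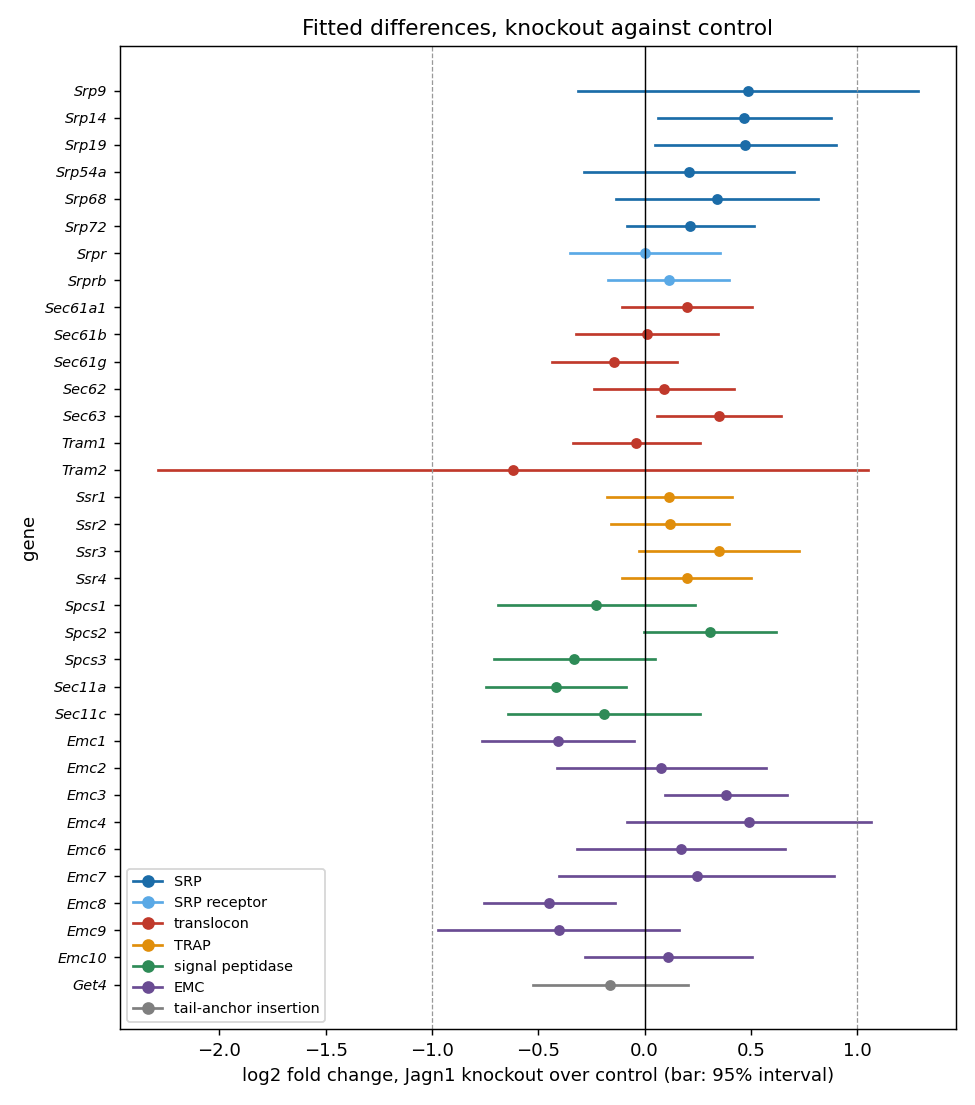
Fitted log2 fold change, Jagn1 knockout over control, for each of the 34 genes (point) with its 95% interval (bar), coloured by complex; the solid line marks 0 and the dashed lines mark 2-fold. The 6 SRP points lie between 0.21 and 0.49, EMC points lie on both sides of 0 from -0.45 to 0.49, and 31 of 34 bars stay within the dashed lines.

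EMC held fitted values on both sides of 0, and none was called. Emc8, a cytosolic subunit, had the smallest p of the 34 genes. It stood at 157, 196, 168 and 139 CPM in control replicates 1 to 4 and at 121, 132, 118 and 114 CPM in knockout replicates 1 to 4. Every knockout library lay below every control library. Its log2 fold change was -0.45 ± 0.14 (95% interval -0.75 to -0.14), with an edgeR adjusted p of 0.0888.

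The call on Emc8 depended on the test and on the control libraries. DESeq2 gave an adjusted p of 0.0389 and limma-voom 0.0128. In edgeR the adjusted p was 0.0484 without control replicate 1, where 8.12% of all genes were called, 0.0230 without control replicate 4 (8.88%) and 0.00653 without both (8.76%), and it ran up to 0.339 over the remaining alternatives. Emc8 lies on chromosome 8 from 120653914 to 120668573 on the minus strand (GRCm38). Its annotated exons share 323 bases with Gm27021 on the same strand and 154 with Cox4i1 on the opposite strand, and whether tags were counted by strand is not stated in the labels. Emc9, the paralog of Emc8 that takes the same place in the complex, was much lower, at 11.0 to 18.7 CPM in the control and 7.74 to 13.1 CPM in the knockout (log2 fold change -0.40 ± 0.27).

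Emc1, the large lumenal subunit, stood at 193, 209, 165 and 144 CPM in the control and at 144, 109.99, 117 and 165 CPM in the knockout. The groups overlap, and its log2 fold change was -0.41 ± 0.17 (edgeR adjusted p = 0.201), with a call in limma-voom alone (adjusted p = 0.0232, within 0.0232 to 0.499 over the alternatives). Its annotated exons share 109 bases with Ubr4 on the same strand and 1956 with a noncoding gene on the opposite strand, so the assignment of some tags is uncertain.

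Emc3, the subunit that forms the insertion site and is related to the bacterial insertase YidC, had a fitted value of the opposite sign. It stood at 75.7, 80.6, 79.5 and 75.2 CPM in control replicates 1 to 4 and at 98.0, 104, 106 and 97.3 CPM in knockout replicates 1 to 4. The groups do not overlap, and its coefficient of variation among control libraries, 3.47%, was the lowest of the 34 genes. The log2 fold change was 0.38 ± 0.13 (95% interval 0.10 to 0.67), with an edgeR adjusted p of 0.125 that ran from 0.0603 to 0.454 over the alternatives, none of which called it. Emc3 is also the member nearest to the deleted gene: it lies on chromosome 6 from 113514874 to 113531652 on the minus strand (GRCm38, GENCODE M21), 66.6 kb from Jagn1, which lies on the plus strand from 113442569 to 113448229. Both groups carry the floxed Jagn1 alleles, and the labels name no difference in this chromosome segment other than the deletion. A local effect of the deletion on Emc3 cannot be told apart from a response to the loss of Jagn1.

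Emc10 had the highest level of the complex, at 291, 255, 203 and 144 CPM in the control and at 245, 249, 245 and 225 CPM in the knockout. The knockout libraries lay inside the control range, and the log2 fold change was 0.11 ± 0.18 (edgeR adjusted p = 0.822), or -0.063 without control replicate 4. Emc4 had few tags, 40 to 85 counts in control and 73 to 87 in knockout libraries. In CPM it stood at 5.62, 7.90, 8.36 and 8.28 in the control and at 11.0, 12.5, 10.2 and 8.78 in the knockout, with a log2 change of 0.49 ± 0.27 (edgeR adjusted p = 0.365). Emc2, Emc6 and Emc7 ran from 23.1 to 35.8, from 43.7 to 117 and from 28.8 to 75.9 CPM in the control, and from 19.1 to 37.5, from 90.0 to 113 and from 32.5 to 79.5 CPM in the knockout. Their log2 fold changes were 0.08, 0.17 and 0.24, and none passed the test.

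Get4 stood at 209, 192, 150.13 and 144 CPM in control replicates 1 to 4 and at 198, 156, 137 and 131 CPM in knockout replicates 1 to 4. The groups overlap, and the log2 fold change was -0.16 ± 0.17 (95% interval -0.53 to 0.20, edgeR adjusted p = 0.696).

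Much of the variation in these genes lay among control libraries. The median coefficient of variation was 18.4% in the control and 10.5% in the knockout (n = 4 libraries each), and it was higher in the control for 23 of 34 genes. The same holds across the transcriptome, with medians of 27.4% and 17.5% over all tested genes and a higher control value for 71.5% of them. In 11 of 34 genes the highest control library had more than 2 times the CPM of the lowest, and in the knockout this held for 2 of 34, Emc7 and Tram2. Control replicate 4 was the highest control library for 16 of 34 genes, and control replicate 1 was the lowest for 13 of 34. Among knockout libraries, replicate 4 was the lowest for 18 of 34. The matching shares over all tested genes were not computed.

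**Figure D4:**
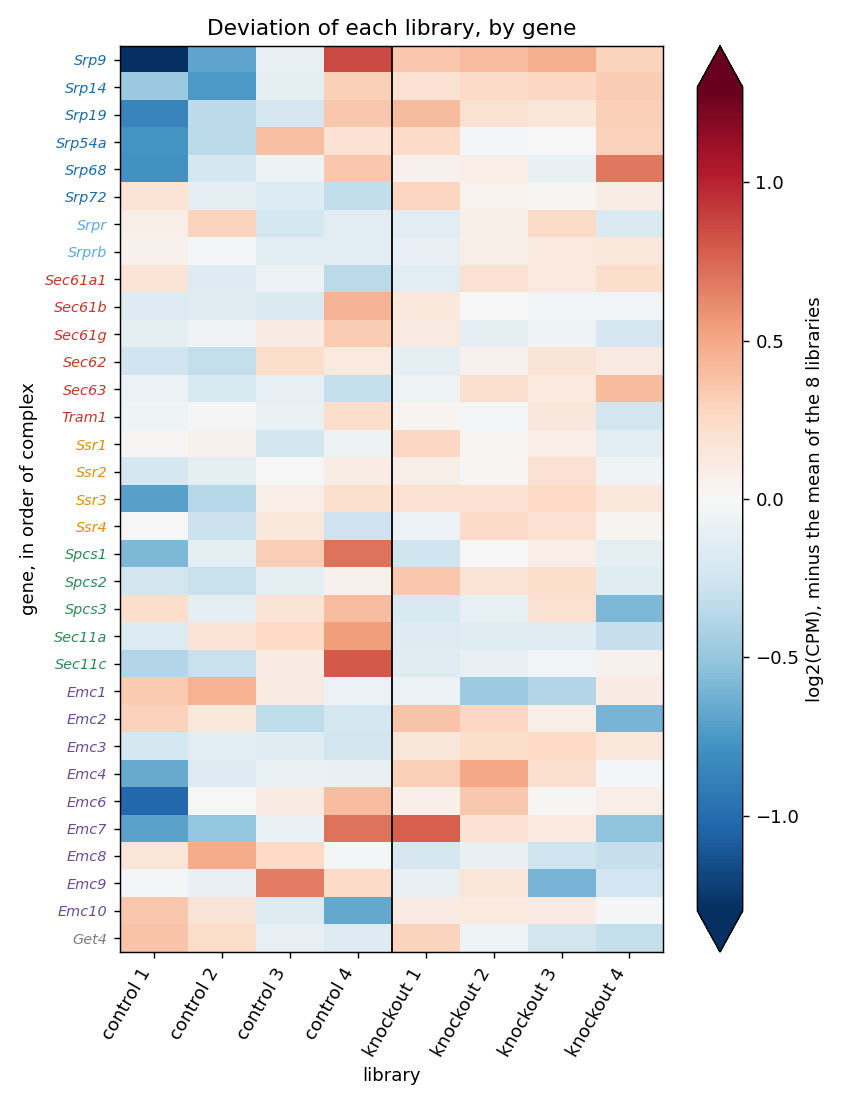
Deviation of each library from the mean of the 8 libraries on the log2 CPM scale, for 33 genes in order of complex (Tram2 is left out because it has 0 counts in a library); red is above and blue below the mean. Control 1 is blue and control 4 red for Srp9, Srp14, Srp19, Ssr3, Spcs1, Sec11c, Emc6 and Emc7, while Srp72, Sec61a1 and Emc10 show the opposite.

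Beyond the 34 genes, a wider list of the same pathways held 2 called genes. This list of 24 genes included the NAC complex that screens nascent chains, the tail-anchor relay, the multipass translocon, BiP with its cofactors, and Mmgt1. Of the 24 genes, 22 were tested (Srp54b and Srp54c were not). Of these, 2 rose and 0 fell, where 2.54% and 3.19% of all genes were called higher and lower, and the median log2 fold change was 0.12. Btf3, the beta subunit of NAC, stood at 14.2, 29.5, 33.6 and 49.7 CPM in control replicates 1 to 4 and at 67.7, 74.5, 75.2 and 50.0 CPM in knockout replicates 1 to 4, and it rose by a log2 value of 1.07 ± 0.28 (edgeR adjusted p = 0.0378). The groups do not overlap, but knockout replicate 4 and control replicate 4 almost touch.

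Ccdc47, a subunit of the multipass translocon, stood at 170, 121, 140 and 116 CPM in the control and at 206, 211.5, 211 and 171 CPM in the knockout, and it rose by a log2 value of 0.55 ± 0.15 (edgeR adjusted p = 0.0497). Its groups are separated by knockout replicate 4 and control replicate 1, also by a small margin. Each call was lost without knockout replicate 1, 2 or 3 or control replicate 2 or 3, with adjusted p-values of 0.0921 to 0.128 for Btf3 and 0.116 to 0.17 for Ccdc47, and at a fold threshold of 1.2 (0.0806 and 0.18). That of Ccdc47 was also lost without knockout replicate 4 (0.0532) or control replicate 4 (0.0659), with a replicate block (0.0604), without robust estimation (0.0545) and with RLE (0.0531) or upper quartile (0.0501) scaling. Btf3 lies on chromosome 13 from 98309896 to 98317006 and Ccdc47 on chromosome 11 from 106197408 to 106216344, both on the minus strand (GRCm38). Annotated exons of Ccdc47 share 158 bases with Strada on the same strand and those of Btf3 share 382 with Gm9828 on the opposite strand, so the assignment of some of their tags is uncertain.

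**Figure D5:**
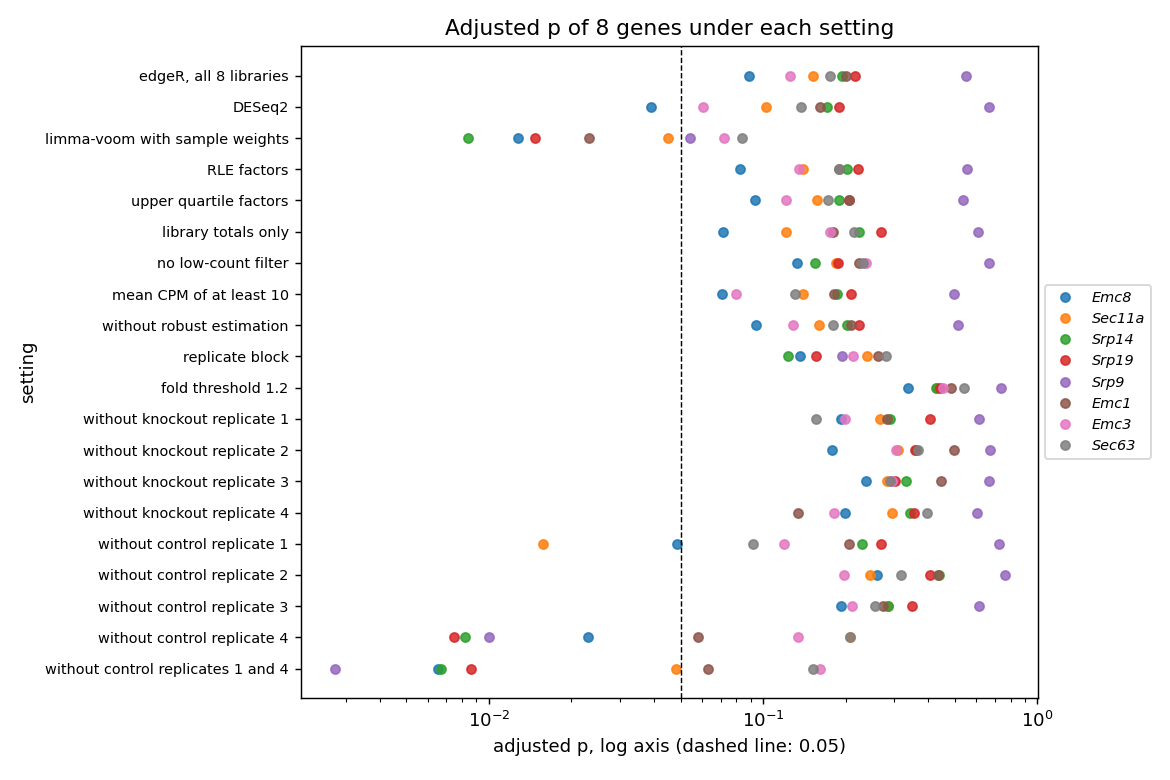
Adjusted p (log axis) of 8 of the 34 genes under edgeR with all 8 libraries and under each of 19 alternative settings, with a dashed line at 0.05. No point lies left of the line with all 8 libraries in edgeR, and the points of Srp9, Srp14, Srp19 and Emc8 move left of it without control replicate 4.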

How the data were processed

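Per the labels' protocols, 500 ng of total RNA from sorted plasmablasts was made into 3′ tag libraries (QuantSeq FWD). The authors deposited raw read counts per gene symbol, not normalized, in a table for each of the 8 samples. HTSeq 0.6.1, TopHat2 2.1.1, SAMtools 1.3.1, BWA 0.7.12 and build mm10 are named per the submitters' processing notes, which leave roles, annotation and strandedness unstated.

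Groups came from the sample titles. Genes were filtered with filterByExpr (minimum count 10, minimum total 15), scaled with TMM factors and tested with edgeR 4.0.16 (R 4.3.3), quasi-likelihood, robust, group alone, two-sided. Standard errors are the log2 fold change over the square root of F, and 95% intervals use the fit's degrees of freedom, unadjusted. CPM uses TMM-scaled totals. The steps were tested on simulated counts, with changes put into 200 genes of at least 10 CPM. They called 14.9% of 1.5-fold, 68.7% of 2-fold and 100% of 4-fold changes, and 6 of 128 calls were false. Alternatives used DESeq2 1.42.0, limma 3.58.1 (voom), other scalings and filters, a fold threshold of 1.2, a replicate block and left-out libraries. The 34 genes and all lists were chosen with earlier results of these data known. Values per library are given for called genes and, per complex, for the smallest p and the highest level; other genes were picked after their values were seen. Protein sequences of paralogs were not analysed here.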

Additional observations from a re-analysis of the deposited data

Results flagged for a closer look

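In 6 of 76 groups of 4, a library lay far from the other 3 by Dixon's ratio at its 95% critical value, where chance gives about 1 in 20. Control replicate 4 held 725 CPM of Sec61b, and its 3 fellow libraries held 470.46 to 478 CPM. Control replicate 1 held 5.62 CPM of Emc4, below the 7.90 to 8.36 CPM of its fellows. Knockout replicate 4 was the low library for 3 genes: Sec11a at 165 CPM against 181 to 182 CPM, Emc10 at 225 CPM against 245 to 249 CPM, and Ccdc47 at 171 CPM against 206 to 211.5 CPM. Jagn1 reached 0.269 CPM in knockout replicate 1 and 0.12 to 0.144 CPM elsewhere in the knockout, which is 2 counts against 1.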

How the results depend on the processing

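The count of called genes among the 34 was 0 with edgeR on all libraries, 1 with DESeq2, 5 with limma-voom, 5 without control replicates 1 and 4, and 0 to 4 with a single library left out. The count over all tested genes, 568, became 858 with DESeq2, 1070 with limma-voom, 329 with a fold threshold of 1.2, 901 without control replicates 1 and 4, and 270 to 892 with a single library left out. The wider list had 2 calls, 1 with RLE scaling, 1 with upper quartile scaling, 1 without robust estimation, 1 with a replicate block, 0 with the fold threshold, and 0 to 3 with a single library left out. Jagn1 kept its call under each alternative that tested it, and the filter at a mean CPM of 10 removed it.

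Of the 34 genes, 26 kept the sign of their fitted value under every alternative that tested them. Srpr was at -0.0065 with DESeq2, -0.0068 with RLE scaling, -0.034 with library totals, -0.035 without control replicates 1 and 4, and between -0.085 and 0.10 with a single library left out. Sec61b was at -0.022 with library totals and between -0.045 and 0.18 with a library left out. Tram1 was at 0.024 with limma-voom, 0.038 without control replicates 1 and 4, and between -0.10 and 0.028 with a library left out. Sec11c was at 0.023 without control replicates 1 and 4 and between -0.33 and 0.11 with a library left out. With a library left out, Spcs1 ran from -0.41 to 0.0076, Emc2 from -0.034 to 0.25, Emc6 from -0.047 to 0.35 and Emc10 from -0.063 to 0.27. The cause was not tested. Chosen after seeing the data, leaving out a single library moved the summed ratio of signal peptidase between 0.862 and 1.07, SRP between 1.22 and 1.35, and EMC between 0.938 and 1.00.

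Same-numbered samples are not stated to be paired. Their deviations correlated at -0.003 to 0.066, and 2 of 4 knockout libraries correlated best with their own number. The replicate block gave 0 calls among the 34 genes and 509 over all genes. For Tram2 and Emc4, which had the fewest counts with Emc9, the 95% interval reached past 2-fold.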

Other observations

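Within 250 kb of Jagn1, 16 genes other than Jagn1 were tested, Emc3 among them, and 1 was called, where 5.74% of all tested genes were called. Il17re, which encodes a receptor subunit for interleukin-17 family cytokines and starts 10.3 kb beyond the 3′ end of Jagn1, had a mean of 91.1 CPM in knockout and 29.4 CPM in control libraries (log2 fold change 1.63 ± 0.21, edgeR adjusted p = 0.00028). The segment was chosen after the value of Emc3 was seen. Among the remaining genes, Ogg1 and Emc3 had knockout libraries entirely above the control libraries (log2 fold changes of 1.29 and 0.38), and Arpc4 and Fancd2 had them entirely below (-0.45 and -0.89), with adjusted p-values from 0.0976 to 0.144. Over all tested genes, 6.45% lay entirely above and 6.64% entirely below.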
